A study of Rattus norvegicus with 14 samples.

Results

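The muscle ubiquitin ligases and FoxO factors described here are 9 genes chosen by name: Fbxo32, Trim63, Trim54, Trim55, Fbxo40, Nedd4, Cblb, Foxo1 and Foxo3. On the array 8 of them had a probe that carried their name, each gene 1 probe with 1 spot, among 18830 named genes in all. The RNA level of Foxo1 is not analysed here. Their RNA was measured in the plantaris, a calf muscle made mostly of fast fibres, of Wistar rats on 3 diets. The control diet (n = 4) held vitamin D at 1000 IU per kg, the depletion diet (n = 6) was depleted of it, and in the repletion group (n = 4) a depleted diet was followed by one with the vitamin put back. How much vitamin D the latter diets held, how long they lasted, and the age and sex of the rats are not stated. Every muscle had an array of its own, read in 1 colour, and the 14 arrays were spread over 5 slides. For depletion replicate 1 the title and the diet field disagree, the field naming repletion. The title was followed, and values without this array are given where it matters. The titles call the muscles biological replicates, so p values measure the spread between these muscles.

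Muscle loses protein largely through the ubiquitin-proteasome pathway, in which a ubiquitin ligase picks the protein to be destroyed and passes ubiquitin onto it. Fbxo32 (atrogin-1) and Trim63 (MuRF1) are the ligases classically induced when muscle wastes through fasting, disuse or glucocorticoids. FoxO transcription factors switch both on, and insulin and IGF signalling keeps FoxO out of the nucleus by way of the kinase Akt. The other ligases differ in target: Trim54 (MuRF3) and Trim55 (MuRF2) bind microtubules and sarcomeres, Fbxo40 and Cblb act on insulin receptor substrate 1, and Nedd4 is a membrane-associated ligase with Notch among its substrates.

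A level here is the log2 signal of a probe relative to the 75th percentile of its array, so that each unit is a doubling. Levels are comparable between arrays for a gene, not between genes, whose probes differ. Differences are log2 differences ± SE from limma with slide as a block, and adjusted p values are Benjamini-Hochberg values over all 26391 probes tested. The 8 probes were well above background on all 14 arrays and saturated on none. Depth has no counterpart on an array; the number of arrays limits the precision.

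The sequences that carry the 4 genes most discussed below are the array's own 60-base probes, shown because each level is the signal of that stretch alone, with positions on rn4 as the files give them. The Fbxo32 probe (NM_133521, chr7:94921822-94932899, minus strand) covers 11078 bases of genome with 60 bases of sequence, so it joins exons. The Trim63 probe (NM_080903) lies at chr5:153069319-153069378 on the plus strand, the Cblb probe (NM_133601) at chr11:49690603-49690662 on the minus strand, and the Foxo3 probe (NM_001106395) at chr20:46171789-46171848 on the minus strand. The remaining probes lie on chromosomes 6 (Trim54), 2 (Trim55), 11 (Fbxo40) and 8 (Nedd4).
Fbxo32: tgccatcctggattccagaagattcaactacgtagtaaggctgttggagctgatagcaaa
Trim63: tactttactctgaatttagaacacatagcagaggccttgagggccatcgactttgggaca
Cblb: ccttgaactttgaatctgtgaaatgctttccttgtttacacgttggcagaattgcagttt
Foxo3: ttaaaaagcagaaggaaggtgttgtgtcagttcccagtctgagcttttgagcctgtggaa

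The tissue label was checked against markers. The 9 fast muscle markers, among them Acta1, Ckm and Myh4, were well above background on all 14 arrays, with a mean level per array of 7.68 to 8.16. Slow muscle markers were present too, at 5.51 to 6.86. No marker of another cell type or fibre type passed limma's test in any of the 3 comparisons, as no probe at all did (0 of 26391), so the following counts are a description. In depletion against control, where 54.7% of all probes lay below 0, 6 of 6 slow muscle markers were above 0 (median 0.74), 6 of 6 macrophage markers (median 0.40) and both measured red blood cell markers (median 0.90). In repletion against depletion, where 41.1% of all probes lay below 0, 4 of 4 Schwann cell markers (median 1.02) and 4 of 4 fibroblast markers (median 0.40) were above 0. In the same comparison 6 of 6 slow muscle markers (median -0.20), 4 of 4 adipocyte markers (median -0.25), 4 of 4 heart muscle markers (median -0.14) and both red blood cell markers (median -0.52) were below it. In repletion against control, where 46.5% of all probes lay below 0, 4 of 4 Schwann cell markers (median 1.29), 6 of 6 slow muscle markers (median 0.53), 5 of 6 macrophage markers (median 0.44) and both red blood cell markers (median 0.39) were above 0, and 4 of 4 adipocyte markers were below it (median -0.39). The mean level of the Schwann cell markers per repletion array ranged from -1.21 to 1.54, with a median of -0.59. Control ranged from -1.76 to -0.12, so the groups overlapped. The part of these cells in the levels below was not tested. In bulk muscle, fewer cells of a type and less RNA per cell cannot be told apart.

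The first comparison, depletion against control, asks whether these genes respond to a diet short of vitamin D. None of the 8 passed the test: limma called 0 of 8, against 0.0% of all probes (lowest adjusted p of a member 0.839). At an unadjusted p under 0.05 the count was also 0 of 8, against 4.83% of all probes. In 0 of 8 genes did the depletion and control arrays not overlap, against 0.86% of all probes. Of the 8 differences 5 were below 0, against 54.7% of all probes, and their median was -0.03.

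Fbxo32, which marks proteins for the proteasome as part of an SCF complex, had the lowest difference of the members. Its level in control was 0.07, 0.60, 0.78 and 0.57 in replicates 1 to 4. Depletion ranged from -0.35 to 0.67, with a median at 0.0, and repletion was at 0.61, 0.32, 0.29 and 0.06. Depletion replicates 4, 5 and 6 lay below every control and repletion array, while depletion replicates 1, 2 and 3 lay within the control range, so the groups overlapped. The mean was 0.50 ± 0.31 (SD, n = 4) in control, 0.10 ± 0.43 (n = 6) in depletion and 0.32 ± 0.23 (n = 4) in repletion. Depletion differed from control by -0.30 ± 0.26 (95% interval -0.87 to 0.28; limma adjusted p = 0.850). Within the slides that held both diets, the difference was 0.24 on slide 1, -0.66 on slide 2 and -0.70 on slide 4. On slide 1, depletion replicate 1 (0.58), whose diet label is in doubt, is set against the mean of control replicates 1 and 2. These lay on either side of it. The fitted difference stayed below 0 with each array left out in turn, from -0.472 without depletion replicate 1 to -0.137 without control replicate 3. It was -0.151 without control replicate 4 or depletion replicate 5, the pair on slide 4.

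Trim63, the ligase that takes apart thick-filament proteins, was the most variable member. Its control levels were 3.0, 2.47, 2.89 and 2.20. Depletion spanned 1.53 to 3.29 with a median of 2.44, and repletion was at 2.6, 2.31, 2.15 and 3.45. Both the lowest array of all (depletion replicate 2) and the second highest (depletion replicate 3) were depletion arrays, and the groups overlapped throughout. The means were 2.64 ± 0.37 in control (SD, n = 4), 2.49 ± 0.70 in depletion (n = 6) and 2.63 ± 0.58 in repletion (n = 4). Depletion differed from control by -0.17 ± 0.43 (95% interval -1.13 to 0.79; limma adjusted p = 0.949). The within-slide differences went both ways, at 0.53, -1.36 and 0.32 on slides 1, 2 and 4. The sign turned without control replicate 3 (0.193) or depletion replicate 2 (0.109), both on slide 2. The interval spans both directions, and the smallest difference that these arrays could detect is not given here.

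**Figure D1:**
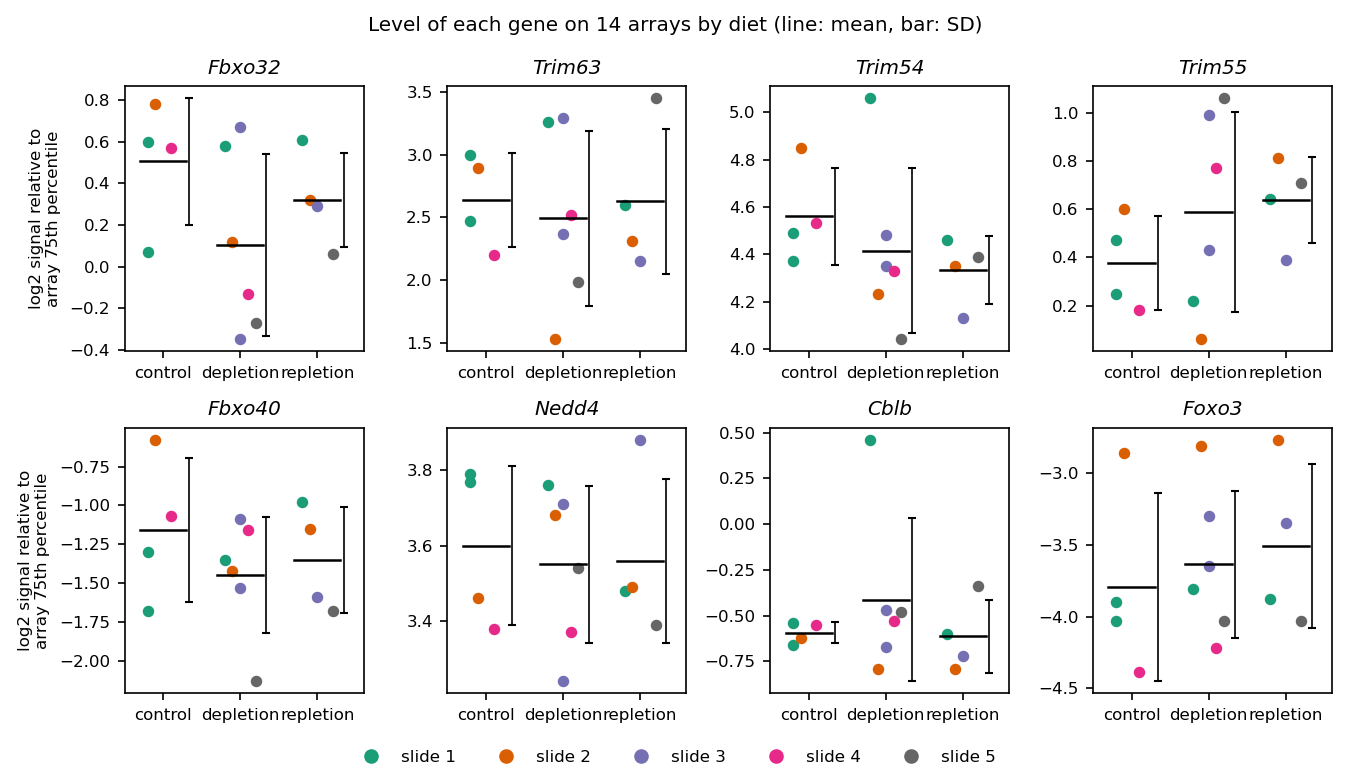
Level of each of the 8 genes on the 14 arrays by diet, as log2 signal relative to the array's 75th percentile; points are arrays coloured by slide, the line is the group mean and the bar its SD. The diets overlap in every panel, depletion replicate 1 stands at 0.46 for Cblb above all other arrays, and the Foxo3 points sort by slide.

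The relatives of Trim63 differed less between arrays. Trim54, which stabilises microtubules in muscle, was at 4.56 ± 0.20 in control (SD, n = 4), 4.42 ± 0.35 in depletion (n = 6) and 4.33 ± 0.14 in repletion (n = 4). Its highest array was depletion replicate 1 at 5.06 and its lowest depletion replicate 6 at 4.04. The depletion difference was -0.03 ± 0.20 (limma adjusted p = 0.984), and it ran from -0.282 to 0.179 with single arrays left out. The Trim54 difference in repletion against depletion, -0.10, turned to 0.064 without depletion replicate 1. Trim55, which links titin signalling to the nucleus, went the other way in order: 0.37 ± 0.19 in control (SD, n = 4), 0.59 ± 0.41 in depletion (n = 6) and 0.64 ± 0.18 in repletion (n = 4). All 4 repletion arrays lay above the control mean, but the control arrays reached 0.60 and repletion began at 0.39. With slide as a block the Trim55 difference was 0.10 ± 0.23 for depletion against control (limma adjusted p = 0.940) and 0.14 ± 0.25 for repletion against control (limma adjusted p = 1.0).

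Among the ligases of insulin signalling, Fbxo40, a muscle-specific F-box protein, was at -1.16 ± 0.46 in control (SD, n = 4), -1.45 ± 0.37 in depletion (n = 6) and -1.35 ± 0.34 in repletion (n = 4). Its depletion difference of -0.15 ± 0.22 (limma adjusted p = 0.904) turned to 0.119 without control replicate 3, the highest array at -0.58. Cblb, a ligase that dampens receptor and insulin signalling, was even in control, at -0.54, -0.66, -0.62 and -0.55. In depletion it ranged from -0.79 to 0.46 with a median of -0.51, and in repletion it was at -0.60, -0.79, -0.72 and -0.34. A single array, depletion replicate 1, whose diet label is in doubt, held the high end; the next depletion array was at -0.47. Cblb had the highest difference of the members, 0.28 ± 0.21 (95% interval -0.20 to 0.76; limma adjusted p = 0.839), and this was -0.051 without that array. Within slides 1, 2 and 4 it was 1.05, -0.16 and 0.01. Nedd4 was the least variable member, at 3.60 ± 0.21 in control (SD, n = 4), 3.55 ± 0.21 in depletion (n = 6) and 3.56 ± 0.22 in repletion (n = 4). Its 95% interval for depletion against control ran from -0.38 to 0.33.

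Foxo3, a FoxO factor that activates Fbxo32 and autophagy genes, was at -3.80 ± 0.66 in control (SD, n = 4), -3.63 ± 0.51 in depletion (n = 6) and -3.51 ± 0.57 in repletion (n = 4). The order of the means was control, depletion, repletion, but no neighbours differed beyond their spread. With slide as a block the depletion difference was 0.11 ± 0.11 (95% interval -0.13 to 0.35; limma adjusted p = 0.857), the narrowest interval of the 8. Within slides 1, 2 and 4 it was 0.16, 0.05 and 0.18. With normexp background correction it was -0.078, where the median difference of all probes was -0.144 (-0.116 in repletion against control). With replicate number in place of slide as the block it was 0.406 (limma adjusted p = 0.909).

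Repletion against depletion asks whether restoring vitamin D moved these genes back. None of the 8 passed the test: limma called 0 of 8, against 0.0% of all probes, and the lowest adjusted p of a member was 0.933. At an unadjusted p under 0.05 the count was 0 of 8, against 3.46% of all probes. The groups overlapped in all 8, where 0.315% of all probes had groups that did not. Of the 8 differences 3 were below 0, against 41.1% of all probes. Fbxo32 differed by 0.22 ± 0.24 (95% interval -0.31 to 0.75), and it was higher in repletion within each of the 4 slides that held both diets, by 0.04, 0.19, 0.13 and 0.33 on slides 1, 2, 3 and 5. On slide 3 the value is set against the mean of depletion replicates 3 and 4, which lay on either side of repletion. Trim63 differed by 0.10 ± 0.39, with within-slide values from -0.67 on slide 3 to 1.46 on slide 5. It turned to -0.283 without repletion replicate 4 or depletion replicate 6, the pair on slide 5, and to -0.143 without depletion replicate 2. Cblb differed by -0.23 ± 0.20. Within slides 1, 2, 3 and 5 it was -1.06, -0.01, -0.14 and 0.14, and the slide 1 value rests on depletion replicate 1. The Cblb difference ran from -0.33 to -0.013 with each array left out in turn, so it came close to 0. It was 0.091 with depletion replicate 1 counted as repletion. For the other 5 members the difference lay between -0.10 (Trim54) and 0.16 (Fbxo40).

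Repletion against control compares rats that differed in vitamin D history. Limma called 0 of 8 members, against 0.0% of all probes, with every member at an adjusted p of 1.0 after rounding, and 0 of 8 had an unadjusted p under 0.05, against 1.99% of all probes. The groups overlapped in all 8, where 1.16% of all probes had groups that did not, and 4 of 8 differences were below 0, against 46.5% of all probes. The differences ran from -0.13 ± 0.22 (Trim54) to 0.14 ± 0.25 (Trim55). Fbxo32 was at -0.08 ± 0.28 and Trim63 at -0.07 ± 0.46. The 3 comparisons share arrays, so their values are not independent of one another.

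**Figure D2:**
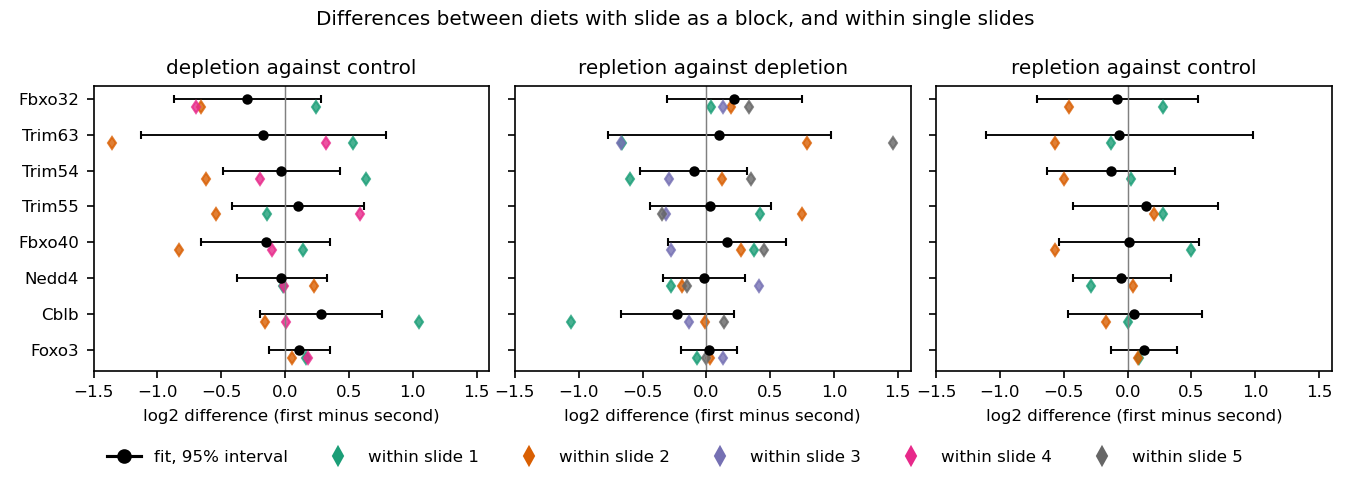
Log2 difference between diets for each gene in the 3 comparisons; black points are the fit with slide as a block with 95% intervals, and coloured diamonds are differences within single slides that held both diets. Every interval includes 0, and the diamonds of Trim63 spread from -1.36 to 0.53 in depletion against control.

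Foxo3 had the highest F for slide of the 8 members. Its mean level was -3.90 on slide 1, -2.81 on slide 2, -3.43 on slide 3, -4.30 on slide 4 and -4.03 on slide 5. The 3 arrays of slide 2, 1 from each diet, were at -2.86 in control, -2.81 in depletion and -2.77 in repletion, the 3 highest of all 14. Slide explained a share of 0.97 of the Foxo3 variance and diet a share of 0.04. Limma's F test for slide called Foxo3 (F = 41.1, adjusted p = 0.000131). It was called in each of the 17 alternatives counted for this test, the weakest of them being normexp (F = 11.7, adjusted p = 0.0134). The slide test was also run under settings outside that count. With the settings used throughout, the test called 1 of 8 members, against 28% of all probes. For Fbxo32 the share by slide was 0.28 and by diet 0.22, and for Trim63 0.19 and 0.02, where the median over all probes was 0.47 and 0.08. The share by slide was above that median in 2 of 8 members, Foxo3 and Fbxo40 (0.54). The shares by slide and by diet were each computed alone and overlap, as the diets were not spread evenly over the slides. Chance alone gives shares above 0, and larger ones for 5 slides than for 3 diets. The labels do not say what the muscles of a slide had in common besides the slide.

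**Figure D3:**
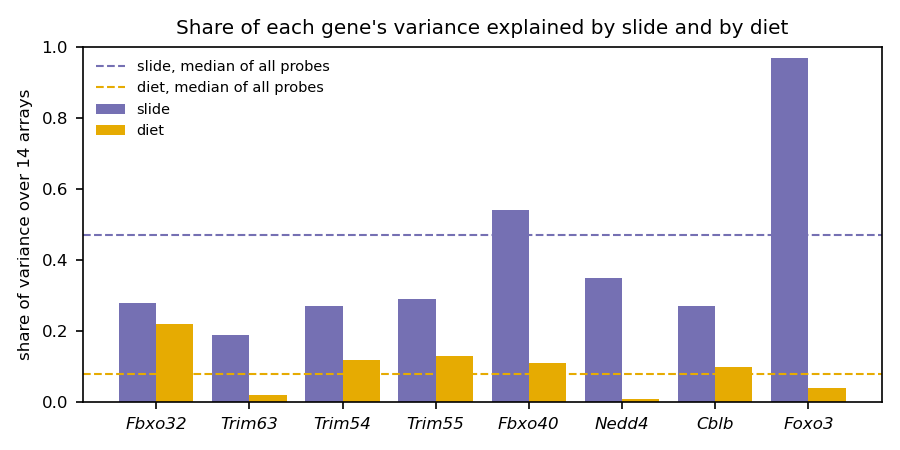
Share of each gene's variance over 14 arrays explained by slide and by diet (bars, from 0 to 1), with the median over all probes for each as dashed lines. Foxo3 reaches 0.97 for slide, and Fbxo32 has the highest share for diet at 0.22.

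Over the 14 arrays, Fbxo32 and Fbxo40 had the highest correlation of the 28 pairs, with r = 0.73 (permutation p = 0.00209, adjusted p = 0.0585) and rho = 0.77 (permutation p = 0.00216, adjusted p = 0.0519). Without the 2 arrays farthest from the Fbxo32 median, r was 0.65, and with each array set against its slide mean it was 0.76. Fbxo32 and Trim54 followed with r = 0.65 (permutation p = 0.0088, adjusted p = 0.123), rho = 0.74 (permutation p = 0.00371, adjusted p = 0.0519), r = 0.61 without 2 arrays and 0.54 set against slide means. Fbxo32 and Trim63, the classical pair, had r = 0.32 (permutation p = 0.261, adjusted p = 0.599), rho = 0.33 (permutation p = 0.253, adjusted p = 0.545), r = 0.17 without 2 arrays and 0.43 set against slide means. Trim55 ran against Fbxo32 at r = -0.59 (permutation p = 0.0283, adjusted p = 0.137) and rho = -0.49 (permutation p = 0.0768, adjusted p = 0.358). Set against slide means r was -0.45, and without 2 arrays it was -0.26. Those 2 were the lowest Fbxo32 arrays, depletion replicates 4 and 6, so leaving both out also narrows the range of Fbxo32. Without replicate 4 alone r was -0.49, and without replicate 6 alone it was -0.48. Trim54 and Cblb had r = 0.63 (permutation p = 0.0343, adjusted p = 0.137) but rho = 0.16 (permutation p = 0.585, adjusted p = 0.780), and r was 0.08 without 2 arrays and 0.76 set against slide means. Without depletion replicate 1, the highest array of both genes, their r was 0.02 (permutation p = 0.957). The value set against slide means was not computed without that array. Trim63 and Trim54 had r = 0.59 (permutation p = 0.0251, adjusted p = 0.137), rho = 0.61 (permutation p = 0.0238, adjusted p = 0.186), r = 0.70 without 2 arrays and 0.73 set against slide means. Trim54 and Fbxo40 had r = 0.60 (permutation p = 0.0262, adjusted p = 0.137), rho = 0.60 (permutation p = 0.0266, adjusted p = 0.186) and r = 0.62 set against slide means. Trim55 and Nedd4 had r = -0.58 (permutation p = 0.0296, adjusted p = 0.137), rho = -0.46 (permutation p = 0.0987, adjusted p = 0.395) and r = -0.65 set against slide means. In all, 7 of 28 pairs had an unadjusted p under 0.05 for r and 0 passed after adjustment over the 28. Set against slide means 3 pairs passed: Fbxo32 with Fbxo40 (permutation adjusted p = 0.0292), Trim63 with Trim54 (permutation adjusted p = 0.0292) and Trim54 with Cblb (permutation adjusted p = 0.0179), in a test that does not count the freedom spent on the slide means. Without depletion replicate 1, 4 pairs passed, namely Fbxo32 with Fbxo40 (r = 0.75, permutation adjusted p = 0.0347), Fbxo32 with Trim54 (r = 0.69, permutation adjusted p = 0.0452), Trim54 with Fbxo40 (r = 0.83, permutation adjusted p = 0.023) and Cblb with Foxo3 (r = -0.71, permutation adjusted p = 0.0452; over all 14 arrays r was -0.37, and 0.18 set against slide means), and without depletion replicate 5 Fbxo32 with Fbxo40 alone (r = 0.82, permutation adjusted p = 0.0129). Slides hold 2 to 4 arrays each, too few for a value within a slide. The permutations shuffled arrays freely across slides, so these p values treat arrays that share a slide as independent.

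**Figure D4:**
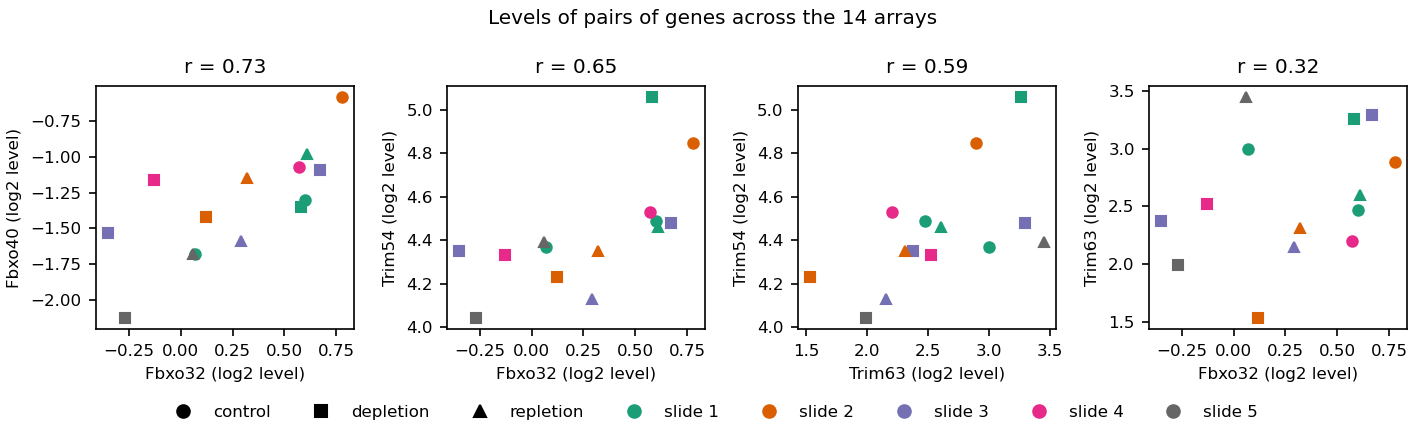
Levels (log2 signal relative to the array's 75th percentile) of 4 pairs of genes across the 14 arrays; shapes are diets, colours are slides and r is Pearson's over all arrays. Fbxo32 runs with Fbxo40 (r = 0.73) and less with Trim63 (r = 0.32).

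Outside the chosen genes, the levels most like Fbxo32 were those of Chmp3 (r = 0.96), a subunit of the membrane-sorting complex ESCRT, Ctsd (r = 0.96), the lysosomal protease cathepsin D, and Rora (r = 0.93), a nuclear receptor of the clock. Those most like Trim63 were Vps16 (r = 0.92), which tethers vesicles to lysosomes, Wbp1l (r = 0.91) and Cpsf3 (r = 0.89), which cleaves precursor RNA. These r are over 14 arrays, each set against its slide mean, and are the highest among 15870 genes searched, so they are a description. Without that centring Chmp3 was at 0.96, Ctsd at 0.85 and Rora at 0.71 with Fbxo32, and Wbp1l at 0.86, Vps16 at 0.64 and Cpsf3 at 0.56 with Trim63. By diet Chmp3 was at 1.43 ± 0.19 in control (SD, n = 4), 1.26 ± 0.19 in depletion (n = 6) and 1.37 ± 0.12 in repletion (n = 4). Ctsd was at 5.33 ± 0.15, 5.25 ± 0.28 and 5.32 ± 0.10 in the same order, and neither gene passed the test in any comparison (lowest limma adjusted p 0.858).

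The rest of the pathway was followed in 6 lists, and limma called 0 genes of each in all 3 comparisons. In depletion against control the list medians lay between -0.05 and 0.07, where all probes had a median of -0.02. Of 18 other muscle ligases, 6 were higher and 12 lower: Fbxo30, a ligase of the BMP and denervation response, differed by 0.15 ± 0.25, the mitochondrial ligase Mul1 by -0.30 ± 0.25, Trim32 by -0.04 ± 0.14 and the chaperone-linked ligase Stub1 by 0.07 ± 0.11. Of 19 genes of ubiquitin itself, the E1 and E2 enzymes and the SCF core, 12 were higher and 7 lower. The ubiquitin gene Ubb differed by -0.21 ± 0.13 and the E2 enzyme Ube2b by 0.11 ± 0.19. Of 8 deubiquitinases 5 were higher and 3 lower, with Usp14, which trims ubiquitin at the proteasome, at 0.21 ± 0.18 and Usp19 at -0.07 ± 0.13.

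Of 19 FoxO relatives and regulators, 9 were higher and 10 lower in depletion. Foxo4 differed by -0.07 ± 0.20, Akt1, which inactivates FoxO, by 0.11 ± 0.19, the related kinase Sgk1 by -0.12 ± 0.32 and Irs1, the substrate of Fbxo40 and Cblb, by -0.26 ± 0.31. Of 22 FoxO targets, 10 were higher and 12 lower, and 2 (1 in each direction) had an unadjusted p under 0.05, as 4.83% of all probes had. Among targets fixed by name, the mitophagy gene Bnip3 differed by 0.27 ± 0.13, Gabarapl1 by 0.04 ± 0.18, Cdkn1a by 0.09 ± 0.32, Gadd45a by 0.12 ± 0.49, Klf15 by -0.30 ± 0.23 and Pdk4, which restrains glucose oxidation, by -0.30 ± 0.23. Of 13 substrates and partners, 6 were higher and 7 lower, with the Fbxo32 substrates Eif3f at -0.03 ± 0.11 and Myod1 at -0.16 ± 0.36. In repletion against depletion the list medians ran from -0.04 to 0.10 (all probes 0.04), the highest being the other muscle ligases, of which 14 were higher and 4 lower. In repletion against control they ran from -0.02 to 0.08 (all probes 0.01).

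**Figure D5:**
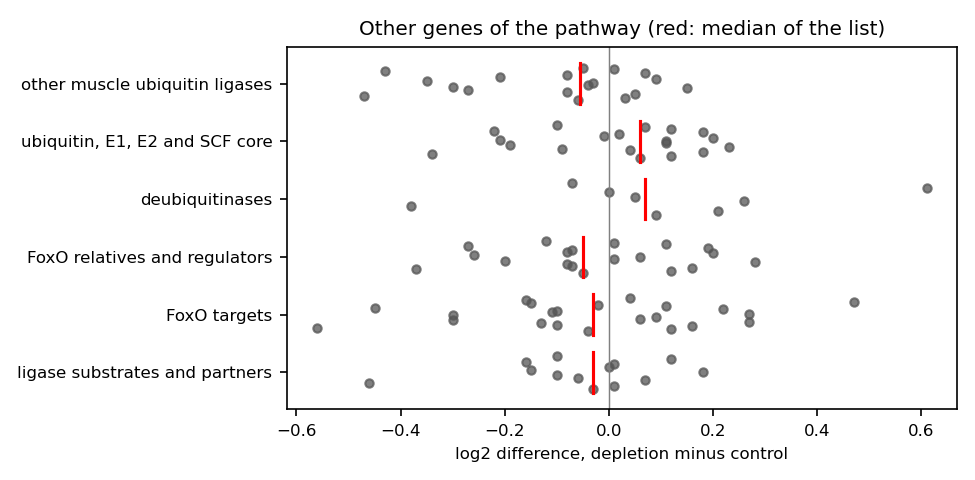
Log2 difference, depletion minus control, of each measured gene in 6 lists of the ubiquitin and FoxO pathway; dots are genes and red lines list medians. The medians lie between -0.05 and 0.07, and no gene passed the test.

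The FoxO binding motif GTAAACA was searched in both strands of the promoters that RefSeq's table on GRCr8 holds, 300 bases each, from 250 before to 50 after the start of the gene. The table holds 6 of the 9 members: Trim63, Trim54, Fbxo40, Nedd4, Cblb and Foxo1. The promoters of Fbxo32, Trim55 and Foxo3 are not in it and were not searched. Of the 6, the motif was in 1, Trim63, against 3.78% of 33469 promoters of that length. In the FoxO target list it was in 1 of 19 promoters. The Trim63 promoter is shown because it holds the match (chr5:151816986-151817285, plus strand, GRCr8); the capitals mark the motif read on the other strand as TGTTTAC, from base -205 to -199 of the start site. The match is a description of these letters, and the levels of Trim63 and Foxo3 over 14 arrays had r = -0.19 (permutation p = 0.518, adjusted p = 0.773) and rho = -0.11 (permutation p = 0.703, adjusted p = 0.820). Without 2 arrays r was 0.21, and set against slide means it was 0.30, so the sign depended on the slides and on those arrays.
Trim63 promoter: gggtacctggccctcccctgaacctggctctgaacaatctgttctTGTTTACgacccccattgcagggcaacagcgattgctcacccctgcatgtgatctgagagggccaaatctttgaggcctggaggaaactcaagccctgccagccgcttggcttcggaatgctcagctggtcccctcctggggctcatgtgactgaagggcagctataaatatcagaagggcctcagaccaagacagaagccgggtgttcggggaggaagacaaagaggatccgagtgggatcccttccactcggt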

How the data were processed

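Signals were read with Agilent Feature Extraction 11.5.1.1, and its processed signal, an intensity less background and detrended on its own array, is unscaled across arrays, per the file headers. The authors also deposited log2 values normalized across arrays (column medians 8.418 to 8.491), for which the submitters' processing notes name limma; method and centring are unknown, and they served as an alternative.

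Spots marked as outliers (0.669% to 1.05% per array) were dropped, and log2 signal was taken relative to each array's 75th percentile (1781.4 to 2387.4). Spots well above background made up 82.79% to 88.05%. The filter left 26391 of 30367 probes (well above background on 4 or more arrays, 2 or more values in each group). Names came from RefSeq accessions (18438 probes), symbols (3168) or the file (1053), and 7708 had none. Of several probes the brightest stood for its gene.

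Diets were compared with limma 3.58.1 (R 4.3.3), slide as a fixed block, at an adjusted p under 0.05; the fit was tested on simulated data. Correlations had two-sided permutation tests with 100000 draws (Python 3.11.15, numpy 2.4.6). The alternatives were normexp (offset 50), quantile and median scaling, the authors' values, 2 other filters, outlier spots kept, no slide block, slide as a random block, a replicate block, weighted arrays, fits restricted to the 2 diets compared, depletion replicate 1 moved to repletion, averaging over probes, and leaving out single arrays. Named list genes were fixed by name and are given for depletion against control. The members, lists and tests were chosen with earlier results of these data known. A planned protein comparison was not made, and 1 list gene is not reported here by name.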

Additional observations from a re-analysis of the deposited data

Results flagged for a closer look

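Among the levels of the 8 genes in 3 groups (24 sets tested, of which chance marks about 1 in 20), a single array stood apart. Cblb in depletion replicate 1 was at 0.46, where the other 5 depletion arrays lay between -0.79 and -0.47. This is the array whose diet field names repletion against its title; the 4 repletion arrays lay between -0.79 and -0.34, so it stood above that group as well. Its share of spots well above background (86.25%) lay within the range of the other arrays. The cause was not tested.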

How the results depend on the processing

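No member passed an adjusted p of 0.05 in any of the 3 comparisons under any of the 27 alternatives (lowest adjusted p 0.612, Cblb in depletion against control), and the count of probes called was 0 in each comparison under all of them. The count of probes that differed between slides was 2107 with normexp against 7400, both of 26391 tested. It was 5039 of 22140 with the filter on all 14 arrays and 7860 of 30366 with no filter. With single arrays left out it was 6299 to 7410. The count of correlated pairs was 0; it was 1 with quantile normalization and 3 with each array set against its slide mean, where the permutation p ignores the freedom lost to centring, and it ranged from 0 to 4 with single arrays left out. Of the 24 member differences, 2 kept their sign under all alternatives, both of Fbxo32: -0.472 to -0.137 in depletion against control and 0.064 to 0.352 in repletion against depletion.

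The other 22 member differences, and those of some list genes, changed sign under at least 1 alternative; the cause was not tested. Without a slide block it turned for Akt1 at -0.006, Sgk1 at 0.02 and Myod1 at 0.233 in depletion against control, for Nedd4 at 0.012 in repletion against depletion, for Fbxo40 at -0.195 and Cblb at -0.022 in repletion against control. With the replicate block in place of slide it turned for Nedd4 at 0.002, Foxo4 at 0.024, Akt1 at -0.015 and Myod1 at 0.114 in depletion against control, for Fbxo40 at -0.004 and Foxo3 at -0.116 in repletion against depletion, for Fbxo40 at -0.195 and Cblb at -0.022 in repletion against control. With normexp it turned for Foxo3 at -0.078 in depletion against control, for Foxo3 at -0.002 in repletion against depletion, for Fbxo40 at -0.032 and Foxo3 at -0.081 in repletion against control. With quantile normalization it turned for Gabarapl1 at -0.009 in depletion against control, for Foxo3 at -0.021 in repletion against depletion, for Fbxo40 at -0.023 in repletion against control. With median centring it turned for Trim55 at -0.006 and Foxo3 at -0.018 in repletion against depletion; for Fbxo40 at -0.017 in repletion against control. On the authors' values it turned for Foxo3 at -0.004 in repletion against depletion; for Fbxo40 at -0.021 in repletion against control. With slide as a random block it turned for Myod1 at 0.036 in depletion against control; for Fbxo40 at -0.106 in repletion against control. With array weights it turned for Trim32 at 0.002, Gabarapl1 at -0.028 and Myod1 at 0.001 in depletion against control, for Trim55 at -0.01 and Nedd4 at 0.01 in repletion against depletion, for Fbxo40 at -0.091 in repletion against control. With depletion replicate 1 counted as repletion it turned for Myod1 at 0.084 in depletion against control, for Trim54 at 0.137, Trim55 at -0.076, Nedd4 at 0.018 and Cblb at 0.091 in repletion against depletion, for Trim63 at 0.008 and Fbxo40 at -0.018 in repletion against control. With only the groups compared in the fit it turned for Trim54 at 0.008, Trim55 at -0.042, Nedd4 at 0.057, Sgk1 at 0.05 and Eif3f at 0.029 in depletion against control; for Cblb at -0.075 in repletion against control. With the mean of a gene's probes it turned for Cdkn1a at -0.003 in depletion against control. With single arrays left out, the sign turned in depletion against control for Trim63 (-0.473 to 0.193), Trim54 (-0.282 to 0.179), Trim55 (-0.069 to 0.306), Fbxo40 (-0.286 to 0.119), Nedd4 (-0.099 to 0.042), Cblb (-0.051 to 0.424), Fbxo30 (-0.107 to 0.381), Trim32 (-0.177 to 0.087), Usp14 (-0.057 to 0.338), Usp19 (-0.141 to 0.019), Foxo4 (-0.217 to 0.081), Akt1 (-0.05 to 0.275), Sgk1 (-0.544 to 0.089), Gabarapl1 (-0.088 to 0.287), Cdkn1a (-0.342 to 0.26), Gadd45a (-0.388 to 0.576), Eif3f (-0.134 to 0.01) and Myod1 (-0.534 to 0.282). With single arrays left out, the sign turned in repletion against depletion for Trim63 (-0.283 to 0.425), Trim54 (-0.227 to 0.064), Trim55 (-0.144 to 0.181), Nedd4 (-0.197 to 0.076) and Foxo3 (-0.028 to 0.056). With single arrays left out, the sign turned in repletion against control for Fbxo32 (-0.272 to 0.097), Trim63 (-0.305 to 0.337), Trim54 (-0.227 to 0.104), Trim55 (-0.024 to 0.275), Fbxo40 (-0.224 to 0.308), Nedd4 (-0.155 to 0.1) and Cblb (-0.065 to 0.237). Deviations of same-numbered arrays from their diet means correlated from -0.49 (control with repletion replicate 2, on different slides) to 0.72 (repletion with depletion replicate 2, which share a slide). Slide was not taken out of these deviations, so they cannot decide whether the shared replicate numbers pair the muscles. With the block on replicate number no probe was called, as under every other setting, so that count cannot decide it either. All 8 member probes were well above background on all 14 arrays.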

Other observations

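Of the pathway list genes outside those fixed by name, 6 lay 0.45 or more from 0 in depletion against control; they were chosen after their values were seen, and none passed limma's test. Sesn1, a stress-induced sestrin, differed by -0.45 ± 0.20 and Cited2, a transcriptional coregulator, by 0.47 ± 0.21, the 2 FoxO targets with an unadjusted p under 0.05. The deubiquitinase Usp28 differed by 0.61 ± 0.33, the FoxO target Pik3ip1 by -0.56 ± 0.36, the muscle ligase Asb2 by -0.47 ± 0.24 and Mybpc2, a fast-fibre myosin-binding protein, by -0.46 ± 0.32 (limma adjusted p = 0.833 for each of the 6).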
